A study of Mus musculus with 9 samples.

Results

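The regions described here are stretches of the mouse autosomes that carried acetylation of lysine 27 of histone H3 (H3K27ac) in both pancreatic cancer cell lines labelled as lacking Kdm6a and not in the line that has it, away from any trimethylation of lysine 4 (H3K4me3). A region is a stretch in which the caller SICER joined windows rich in reads. They were chosen by merging the 3 H3K27ac region lists wherever regions overlapped by at least 1 bp. A merged region was kept if both KO lists overlapped it, the WT list did not, and no region of any H3K4me3 list touched it. Of 26106 merged regions on chromosomes 1 to 19, 2527 (9.68%) met the conditions on the KO and WT lists. Of these 2527, 1183 overlapped H3K4me3 and 1344 did not. The 1344, called KO-shared distal regions here, made up 5.15% of all merged regions and 10.3% of the 13026 that lay outside H3K4me3. Another 1835 of those 13026, or 14.1%, were in the WT list alone. Presence and absence of H3K27ac therefore defined the set and is given as a description, with no test.

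Chromatin immunoprecipitation and sequencing (ChIP-seq) was carried out for 3 histone marks in 3 cell lines, with 1 library for each mark and line. The lines were a female KDM6A-KO line, a male KDM6A-KO line and a male KDM6A-WT line, called female KO, male KO and WT below. All were labelled as derived from pancreas of mice on a mixed C57BL/6-SV129 background, were grown in F12/DMEM with EGF and received no treatment. The labels used here do not give the alleles, the Cre driver or the number of animals behind a line, there was no female WT line, and the loss of Kdm6a was not checked, since no gene was placed on build mm9. With 1 library per group the spread between replicates is unknown, so no p-value is given, and each comparison is between libraries. Intervals are 95% Wilson intervals for a share and Newcombe intervals for a difference of shares. Both cover counting error alone, with regions taken as independent. In these bulk libraries, a mark present in fewer cells and less of the mark in each cell cannot be told apart.

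The Kdm6a protein is an enzyme that takes methyl groups off lysine 27 of histone H3, and it is also a subunit of the complexes around the methyltransferases Kmt2c and Kmt2d, which place monomethylation of lysine 4 at enhancers. Acetylation and trimethylation (H3K27me3) of lysine 27 cannot sit on the same residue. H3K27ac marks active promoters and enhancers, H3K27me3 is laid down by Polycomb complexes at silenced genes, and H3K4me3 marks promoters. H3K27ac outside H3K4me3 is commonly read as a sign of an active enhancer, although such regions were not tested for enhancer activity here. Whether WT chromatin at the KO-shared distal regions carried H3K27me3, the mark that Kdm6a removes, was the main question put to data that the choice of regions did not use.

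The lists differ in the number of reads their regions hold, and the total depth of the libraries is not known. Autosomal H3K27ac regions held 12153207 reads for female KO and 10900677 for male KO, against 3940762 for WT. Over the 76.9 Mb that all 3 lists held, H3K27ac averaged 71.0 and 88.2 reads per kb in female KO and male KO and 39.5 in WT. For H3K27me3 the corresponding densities were 67.1, 23.1 and 17.6 reads per kb, and the 3 lists covered 13.3, 9.60 and 5.85% of the autosomes. A shallower library can miss weak regions. The part of depth in the absence of the 1344 regions from the WT list was not tested.

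KO-shared distal regions had a median width of 6.8 kb, with an interquartile range of 4.6 to 10 kb. The narrowest spanned 0.6 kb and the widest 48.8 kb. In all, 61 were 20 kb or wider and 18 were narrower than 2 kb. Together they covered 11.2 Mb. Distal regions of all 3 lists (n = 2403) were wider, with a median of 9.6 kb, whereas distal regions in a single list had medians of 5.2 kb for female KO, 2.8 kb for male KO and 2.8 kb for WT. KO-shared regions with H3K4me3 had a median of 5.4 kb. A merged region that rests on several lists spans the union of them, so width grows with the number of lists by construction.

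H3K27ac at the KO-shared distal regions was less dense than at distal regions of all 3 lists and denser than at those of a single KO list. Their median density was 32.8 reads per kb of called length in the female KO library, with an interquartile range of 28.1 to 39.5 and extremes of 18.5 and 107. In the male KO library it was 42.4 reads per kb, with an interquartile range of 35.7 to 50.7 and extremes of 19.5 and 138. Distal regions of all 3 lists had medians of 39.3 reads per kb in female KO and 54.1 in male KO, beside 26.0 in WT. Those of 1 KO list alone had 30.4 reads per kb in female KO and 35.4 in male KO. The patterns were set by which lists called a region, and a list can miss weak regions. This order of densities is therefore tied to the choice of regions and is given as a description. KO-shared regions with H3K4me3 were denser than the KO-shared distal regions in both libraries, at 42.7 and 53.3 reads per kb. The KO-shared distal regions held a median of 212 reads in female KO and 172 in male KO. Of the reads in autosomal H3K27ac regions, they took up 3.24% in female KO and 2.74% in male KO, on 5.33 and 4.44% of the length those lists covered.

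**Figure D1:**
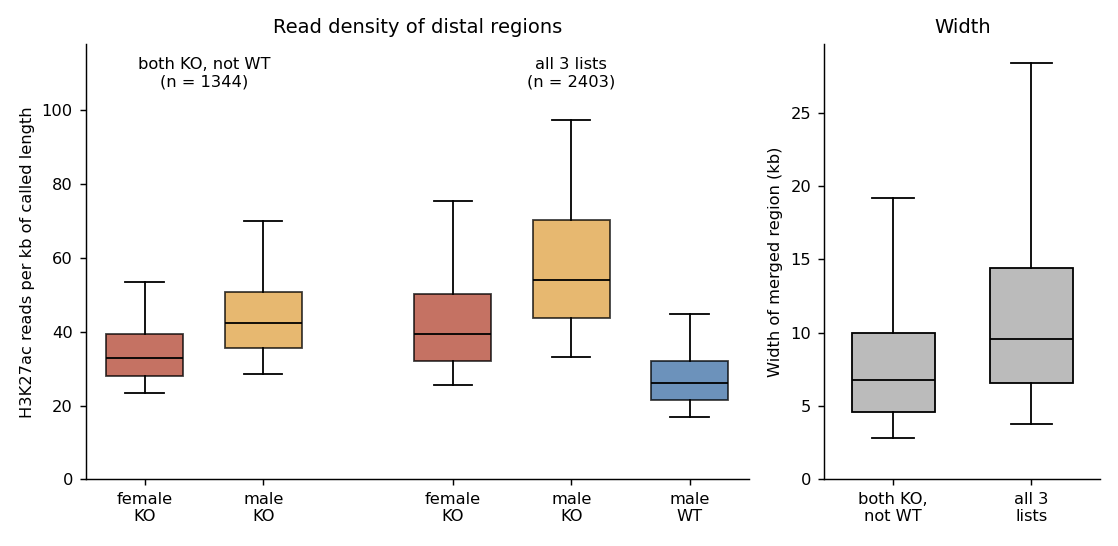
H3K27ac reads per kb of called length (left) and width of the merged region in kb (right) for distal H3K27ac regions. Boxes show the quartiles with the median as a line, and whiskers run from the 5th to the 95th percentile of regions. The 1344 KO-shared distal regions have lower medians than the 2403 regions of all 3 lists, 32.8 against 39.3 reads per kb in female KO, 42.4 against 54.1 in male KO, and 6.8 against 9.6 kb in width.

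To set these densities beside the WT library, the KO densities were multiplied by the ratio of WT to KO reads over the length all 3 lists held, 0.557 for female KO and 0.448 for male KO. The scaled medians at the KO-shared distal regions were 18.3 reads per kb from female KO and 19 from male KO. WT regions outside H3K4me3 that no KO list held had a median of 20 reads per kb. At the scaled density, 90.8% of the regions from female KO and 97.2% from male KO were at or above the lowest density of any WT region of like width. Only 3.65 and 7.66% were at or above the median WT density of like width, which includes promoters. For distal regions of all 3 lists those last shares were 8.24 and 21.1%, and 93.5 and 98.8% were at or above the lowest density. This arithmetic places most of the KO-shared distal regions, but not all, between the lowest and the median level of the WT list. It does not say what the WT library held there.

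Both KO libraries contributed to every region by the rule, and the stretch they both covered was a median of 57.1% of the merged width, and at least 50% of it in 860 of 1344 regions (64.0%). In 1265 of the 1344, each list contributed a single called region. The female KO call was the wider in 1021 regions and the male KO call in 279, and distal regions of all 3 lists showed a similar tilt, with the female KO call wider in 75% of them, beside 76% of the KO-shared ones. Median called widths were 6.4 kb in female KO and 4.0 kb in male KO. Across the 1344 regions the densities of the 2 libraries had a Spearman correlation of 0.39, and the read counts 0.53. This is a description over regions called in both libraries and not over independent samples. After division by the male to female ratio over shared length (0.31 on the log2 scale), the 2 densities were within 2-fold of each other in 1302 regions, or 96.9%. That share was 96.0% at distal regions of all 3 lists and 98.0% at KO-shared regions with H3K4me3, so it was not particular to the KO-shared distal regions. In those 2 sets the correlation of densities was higher, at 0.50 and 0.43, and the median stretch both KO lists covered was 62.1 and 58.1%.

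The borders of the set are narrow on both sides. A WT H3K27ac region lay within 1000 bp of 23 KO-shared distal regions, which had a median width of 5.2 kb and median densities of 31.4 and 35.8 reads per kb in female KO and male KO. Just outside the rule, 23 distal regions had WT H3K27ac over at most 1000 bp, with a median width of 4.6 kb and densities of 30.8 and 38. On the H3K4me3 side, 31 members had an H3K4me3 region within 1000 bp, and 34 KO-shared regions were left out for an H3K4me3 overlap of at most 1000 bp. In 22 members one of the KO lists covered no more than 1000 bp.

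The widest KO-shared distal region lay on chromosome 11 from 119511801 to 119560600 (mm9). The female KO list covered its 48.8 kb as a single call with 2429 reads, and the male KO list covered 27.8 kb in 4 calls with 1323 reads. The densities were thus alike, 49.8 and 47.6 reads per kb, and no H3K27me3 was called there in any line. This region was also second by the lower of the 2 KO read counts. The next widest, on chromosome 6 from 136836201 to 136883000, held 2202 reads in female KO and 642 in male KO. On chromosome 2 from 167529201 to 167575800, 46.6 kb wide, the male KO call spanned 3.8 kb, and H3K27me3 of the female KO line lay over 45.2 kb. The other wide regions were on chromosome 7 from 151785201 to 151826200 and on chromosome 8 from 46754601 to 46792400. Their densities were 60.6 and 29.0 reads per kb in female KO, and 32.8 and 31.8 in male KO. In each of these wide regions the female KO call made up the whole width.

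Strong H3K27ac in both KO lines was clearest on chromosome 7 from 70955801 to 70969800. This 14.0 kb region held 1493 reads in female KO and 1354 in male KO, or 107 and 103 reads per kb, and it ranked first both by the lower read count and by the lower density. The nearest WT H3K27ac region was 25 kb away and the nearest H3K4me3 region 7.8 kb away. A region on chromosome 4 from 149230601 to 149256800 held 1088 reads in female KO and 1165 in male KO, and no WT H3K27ac lay within 69.6 kb of it. On chromosome 18 from 75711401 to 75730200 the counts were 1161 and 1088, with densities of 61.8 and 90.7 reads per kb. On chromosome 6 from 146844601 to 146867400 they were 1688 and 1054, but WT H3K27ac lay 4.2 kb away and H3K4me3 2.6 kb away. No H3K27me3 was called at these 4 regions in any line.

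By density in both KO libraries, the region on chromosome 7 was followed by 4 others. On chromosome 3 from 80859201 to 80867800 the densities were 96.0 reads per kb in female KO and 89.6 in male KO, over 8.6 kb, and on chromosome 18 from 78265001 to 78274000 they were 69.9 and 87.1, over 9.0 kb. The region on chromosome 18 was 122 kb from the nearest WT H3K27ac. The remaining 2, on chromosome 13 from 12726201 to 12726800 and from 13469401 to 13470200, were only 0.6 and 0.8 kb wide with identical borders in both KO lists. They held 56 and 84 reads in female KO and 61 and 70 reads in male KO. Their high densities of 93.3 and 105 reads per kb in female KO, and 102 and 87.5 in male KO, therefore rest on few reads.

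Few KO-shared distal regions carried H3K27me3, and fewest in the WT line. It overlapped 181 of the 1344 for the female KO list (13.5%, 11.7 to 15.4%), 69 for male KO (5.13%, 4.08 to 6.45%) and 37 for WT (2.75%, 2 to 3.77%). Over all 13026 distal merged regions the shares were 18.8% for female KO, 7.27% for male KO and 2.91% for WT, so the WT share at the KO-shared ones was near that background. H3K27me3 covered 9.60% of their length for female KO, 2.64% for male KO and 1.32% for WT. No line had the mark at 1151 of the 1344 regions, or 85.6%. The order of the 3 lines is that of the length their H3K27me3 lists cover.

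The distal regions stood apart in this from the KO-shared regions with H3K4me3, of which 199 of 1183 overlapped WT H3K27me3 (16.8%, 14.8 to 19.1%). The difference was -14.1 percentage points (-16.4 to -11.8). A gap of like size was seen at matched width, with 2.32% (1.33 to 4.01%) of distal and 17.3% (14.5 to 20.4%) of H3K4me3-bearing regions from 2 to 6 kb. In female KO the 2 kinds of KO-shared region differed by -21.9 points and in male KO by -12.6 points. H3K4me3 was part of the rule and H3K27me3 was not, and regions with H3K4me3 also carried more H3K27me3 when H3K27ac was in all 3 lists, 3.74% in WT against 1.58% for distal regions. Those 2 shares lie closer together than 16.8 and 2.75%.

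Against distal regions of other H3K27ac patterns the differences in WT H3K27me3 were small. Distal regions of all 3 lists overlapped it in 38 of 2403 cases, 1.58% (1.15 to 2.16%), and the KO-shared ones lay 1.17 points higher (0.223 to 2.28). With H3K27me3 regions at or above their median count the interval of that difference ran from -0.370 to 1.40, and with H3K27ac regions of 2 to 6 kb from -0.246 to 3.21. WT-only distal regions stood at 1.31% (0.880 to 1.94%). Both sets carry H3K27ac in WT by definition. Distal regions of 1 KO list alone, which lack it as the KO-shared ones do, stood at 4.56% for female KO (3.75 to 5.53%) and 4.48% for male KO (3.83 to 5.23%). The difference of the KO-shared ones was -1.81 points (-3.04 to -0.509) from female KO alone and -1.72 points (-2.79 to -0.517) from male KO alone. WT H3K27me3 was therefore not more frequent at the regions both KO lines shared than at those of 1 KO line.

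**Figure D2:**
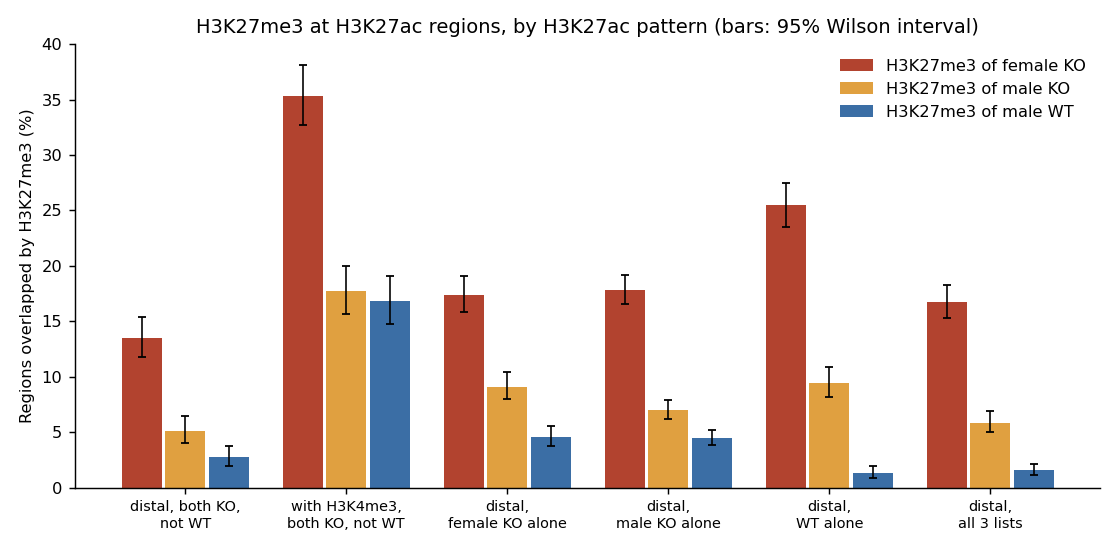
Share of H3K27ac regions overlapped by H3K27me3, for the list of each line (female KO, male KO, WT), by the H3K27ac pattern of the region. Error bars are 95% Wilson intervals over regions. For the KO-shared distal regions the shares are 13.5, 5.13 and 2.75%, and for those with H3K4me3 they are 35.3, 17.8 and 16.8%.

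Without matching for width, H3K27me3 of the KO lines was less frequent at the KO-shared distal regions than at most other distal patterns. This held with or without H3K27ac in that line. WT-only distal regions overlapped H3K27me3 in 25.4% of cases in female KO and 9.43% in male KO, and the KO-shared ones differed by -12 and -4.29 points. Distal regions of male KO and WT, which lack H3K27ac in female KO, overlapped female KO H3K27me3 in 22.6% of cases, and the difference was -9.11 points (-11.9 to -6.30). Among patterns that carry H3K27ac in female KO, the difference was -3.26 points (-5.57 to -0.855) from all 3 lists, -3.94 points (-6.33 to -1.46) from female KO alone and -6.49 points (-10.7 to -2.62) from female KO and WT. Among those that carry it in male KO, the difference was -1.88 points (-3.28 to -0.335) from male KO alone. From all 3 lists it was -0.734 points (-2.20 to 0.842) and from male KO and WT -0.811 points (-2.50 to 0.894), and both of these intervals held 0. Distal regions of all 3 lists were wider, and the gap to them in female KO varied with width. From 2 to 6 kb the female KO shares were 9.85% for KO-shared and 10.6% for all 3 lists. They were 15.5 and 14.6% from 6 to 12 kb, and 16.9 and 22.8% from 12 kb up. Regions of female KO alone stood higher than KO-shared ones from 2 to 6 kb (15.4%) and from 6 to 12 kb (19.6%).

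H3K27me3 was less frequent inside the regions than beside them in all 3 lines. In female KO, the share of KO-shared distal regions with H3K27me3 was 7.37% at the centre, and 14.7 and 15% at 20 kb to the left and right. In male KO it was 1.41% at the centre and 4.76 and 6.55% at 20 kb, and in WT it was 0.893% at the centre and 3.94 and 4.32% at 20 kb. The low centre was thus present in the WT line, where no H3K27ac was called in any of these regions. The rule kept H3K4me3, which went with more H3K27me3 among KO-shared regions, out of the regions but not out of their flanks. WT H3K4me3 was at 4.76 and 4.54% of positions 20 kb to the left and right. The part of this filter in the low centre was not tested. At distal regions of all 3 lists WT H3K27me3 was at 0.0832% in the centre and 2.79 and 2.66% at 20 kb. KO-shared regions with H3K4me3 showed no such low in WT, at 10.8% in the centre and 8.62 and 7.52% at 20 kb. By length, WT H3K27me3 covered 1.32% of the KO-shared distal regions and 2.83% of the 10 kb on each side.

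**Figure D3:**
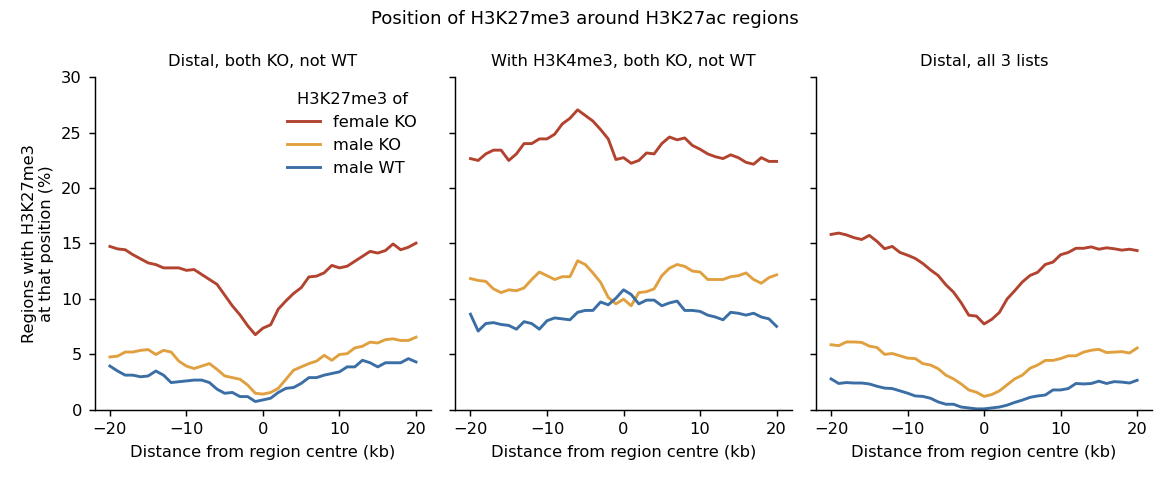
Share of H3K27ac regions that have H3K27me3 at a given distance in kb from the region's centre, in steps of 1 kb, for each line's H3K27me3 list. The curves of KO-shared distal regions are at 7.37% for female KO, 1.41% for male KO and 0.893% for WT at the centre and higher at 20 kb on both sides. Those of KO-shared regions with H3K4me3 do not have this low in WT.

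The 37 regions with WT H3K27me3 lay on 15 chromosomes and resembled the rest in H3K27ac. Their median densities were 33.1 reads per kb in female KO and 43.2 in male KO, against 32.8 and 42.3 in the 1307 others, and their median widths 7.2 and 6.8 kb. H3K27me3 covered a median of 33.3% of such a region in WT, and at least 50% of it in 16. In female KO, 32 of the 37 also overlapped H3K27me3 (86.5%, 72.0 to 94.1%), and in male KO 19 did (51.4%, 35.9 to 66.6%). In 4 regions neither KO line had the mark. At the 38 distal regions of all 3 lists with WT H3K27me3, 37 had it in female KO and 32 in male KO (84.2%, 69.6 to 92.6%). At the 199 KO-shared regions with H3K4me3, 163 had it in female KO and 125 in male KO (62.8%, 55.9 to 69.2%). The intervals for male KO do not overlap between the KO-shared distal regions and distal regions of all 3 lists, but both rest on fewer than 40 regions of a single library. Those of all 3 lists were also wider, at a median of 12.8 kb against 7.2 kb. Distal regions of male KO alone, which lack H3K27ac in WT too, had the mark in male KO in 92 of 150 cases. That share (61.3%, 53.3 to 68.8%) has an interval that overlaps the one of the KO-shared distal regions.

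The longest WT H3K27me3 was on chromosome 9 from 102957601 to 102995000. The mark covered all 37.4 kb of this region in female KO, 34.6 kb in male KO and 33.2 kb in WT, and the male KO H3K27ac call there was 1.2 kb long with 36 reads. On chromosome 8 from 123704601 to 123721800 it covered 17.2 kb in female KO, 15 kb in male KO and 10.2 kb in WT, beside H3K27ac of 66.5 and 65 reads per kb in female KO and male KO. On chromosome 17 from 14471601 to 14480800 H3K27me3 lay over none of the region in female KO, 3.8 kb in male KO and 6.8 kb in WT. That region held 346 H3K27ac reads in female KO and 285 in male KO, and the nearest WT H3K27ac was 201 kb away. A region of chromosome 2, from 167387601 to 167417800, had 26.0 kb of the mark in female KO, 3.8 kb in male KO and 6.2 kb in WT. The last of the 5, on chromosome 5 from 125667601 to 125676800, had 6.8 kb in female KO, 6.2 kb in male KO and 6.2 kb in WT. WT H3K27me3 at these regions was thus accompanied by the mark in at least 1 KO line.

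H3K27me3 regions that both KO lists lacked seldom met these regions. Of 4043 merged H3K27me3 regions of WT alone, those that overlapped a KO-shared distal region involved 6 of the 1344 (0.446%, 0.205 to 0.971%), against 1 of 2403 distal regions of all 3 lists. The share was similar at distal regions that also lack H3K27ac in WT, at 0.329% for female KO alone and 0.448% for male KO alone. Within 50 kb there was an H3K27me3 region of WT alone for 4.76% of the KO-shared distal regions, 2.29% of distal regions of all 3 lists, 4.61% of those of female KO alone and 9.37% of those of male KO alone. H3K27me3 regions that both KO lines had and WT lacked overlapped 2.75% of the KO-shared distal regions, 4.33% of distal regions of all 3 lists and 6.76% of the WT-only ones.

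Most KO-shared distal regions stood alone. The gap to the next such region was 267 kb at the median, and 315 of the 1344 (23.4%, 21.3 to 25.8%) had another within 50 kb. Runs of them with gaps of at most 50 kb numbered 123 with 2 members and 23 with 3, and no run was longer. For distal regions of other patterns, the share with a partner of their own pattern within 50 kb was 36.6% for all 3 lists and 41.4% for WT alone, which hold more regions, 2403 and 1835. It was 17.2% for female KO and WT, which hold fewer, 471. Among distal patterns, the set of male KO and WT, with 1497 regions, is nearest in size and stood at 28.5%. KO-shared regions with H3K4me3, with 1183 regions, stood at 19.2%.

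The next H3K27ac region along the chromosome was more often of the same kind than over all merged regions. Of 2686 adjacent regions, 11.2% were KO-shared distal regions themselves, against 5.15% of all merged regions. Regions of the WT list made up 48.0% of the adjacent ones, against 63.4% of all. WT-only distal regions were 2.35% of the adjacent ones and 7.03% of all. A raised share of the own kind was seen for other patterns as well, at 15.8 against 9.20% for distal regions of all 3 lists and 22.4 against 7.03% for those of WT alone. It was 20.8 against 8.14% for female KO alone and 28.2 against 12.8% for male KO alone. KO-shared regions with H3K4me3 made up 5.51% of the regions adjacent to KO-shared distal ones and 4.53% of all.

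**Figure D4:**
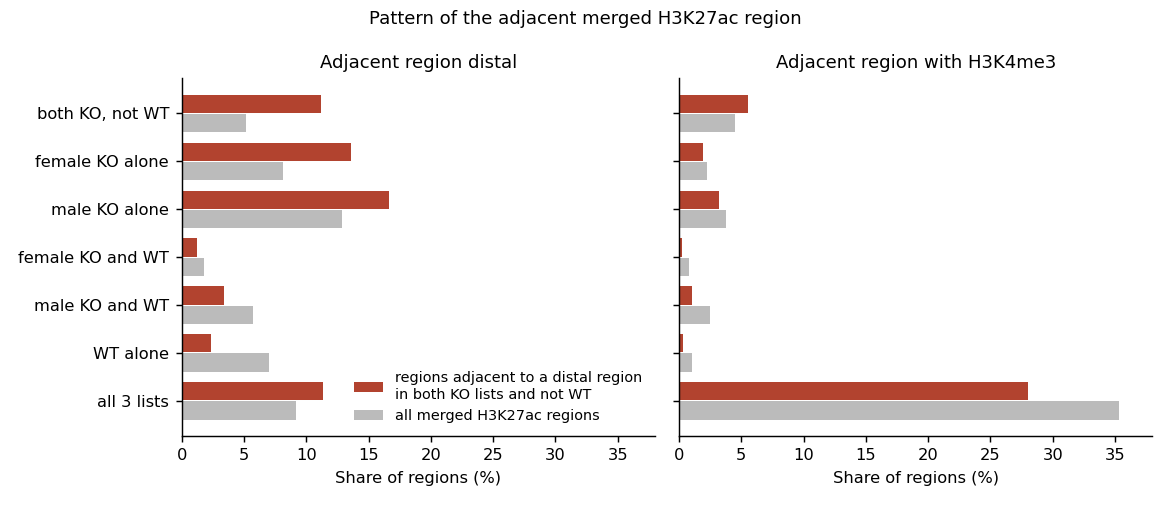
Pattern of the merged H3K27ac regions adjacent to a KO-shared distal region, for adjacent regions outside H3K4me3 (left) and with H3K4me3 (right), beside the share of each pattern among all 26106 merged regions. Adjacent regions of the same distal pattern make up 11.2% against 5.15% of all, and distal regions of WT alone 2.35% against 7.03%.

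WT H3K27ac was nevertheless often close. The nearest WT region lay 30 kb away at the median, and within 50 kb for 844 of the 1344 (62.8%, 60.2 to 65.3%). For distal regions of female KO alone this share was 70.2% and for male KO alone 55.0%. Within 5 kb it was 11.2% for the KO-shared distal regions, 15.4% for female KO alone and 9.19% for male KO alone.

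H3K4me3 regions that both KO lines had and WT lacked lay near KO-shared distal regions more often than near distal regions of all 3 lists or of WT alone, while the intervals overlapped with those of female KO alone. Such an H3K4me3 region was the nearest of all H3K4me3 regions for 102 of the 1344, or 7.59% (6.29 to 9.13%), although they make up 3.17% of the 18007 merged H3K4me3 regions. The share was 2.95% (2.35 to 3.71%) for distal regions of all 3 lists, 5.88% (4.96 to 6.96%) for female KO alone, 3.85% (3.25 to 4.56%) for male KO alone and 1.42% for WT alone. Within 50 kb there was such an H3K4me3 region for 4.39% (3.42 to 5.62%) of the KO-shared distal regions, 3.95% (3.20 to 4.87%) of those of female KO alone and 2.50% (1.94 to 3.20%) of those of all 3 lists. H3K4me3 regions of WT alone were the nearest for 6.25% of the KO-shared distal regions, 12.6% of distal regions of all 3 lists and 21.1% of WT-only ones, with 8.52% among all H3K4me3 regions. The median distance to any H3K4me3 region was 33.8 kb, close to the 30.2 kb of distal regions of all 3 lists. For 852 of the 1344 the nearest H3K4me3 region was held by all 3 lines.

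Of the 23 runs of 3 regions, the one with the longest summed width lay on chromosome 7 from 141187601 to 141292200. Its 3 regions summed to 59.8 kb of a 105 kb span, with 2146 reads in female KO and 526 in male KO, and the span held no WT H3K27ac, no H3K4me3 and no H3K27me3 in any line. A run on chromosome 4 from 130255001 to 130318000 had the same absence of other marks, with 1347 and 769 H3K27ac reads in female KO and male KO. On chromosome 4 from 82016601 to 82095400, by contrast, WT H3K27ac covered 5.8 kb between the KO-shared regions. The run on chromosome 18 from 75711401 to 75761800 was the densest of the 5, at 45.0 reads per kb in female KO and 78.3 in male KO. The fifth run, on chromosome 13 from 94900201 to 94967800, had 1491 reads in female KO and 1008 in male KO. It spanned an H3K4me3 region of each KO line and none of WT, and H3K27me3 over 29.6 kb in female KO, none in male KO and 1.8 kb in WT.

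Chromosomes differed in how many of their distal H3K27ac regions were KO-shared. The share was highest on chromosome 18, with 74 of 477 regions (15.5%), chromosome 14, with 79 of 545 (14.5%, 11.8 to 17.7%), and chromosome 16, with 73 of 523 (14.0%, 11.2 to 17.2%). It was lowest on chromosome 19, with 13 of 296 (4.39%, 2.58 to 7.37%), chromosome 15, with 47 of 712 (6.60%, 5 to 8.67%), and chromosome 1, with 74 of 1095 (6.76%, 5.42 to 8.40%). Intervals on 3 chromosomes lay above the 10.3% of all distal regions, on 5 below it, and on 11 around it. Per 10 Mb the count ran between 2.12 on chromosome 19 and 8.15 on chromosome 18. Chromosome 4 held 95 of the 1344, or 7.07%, against 6.04% of all distal regions.

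The level of H3K4me3 reads per chromosome moved with these shares. The measure was the log2 ratio of KO to WT reads over length that all 3 H3K4me3 lists held, minus its median over chromosomes. Over the 19 autosomes the share of KO-shared distal regions had a Spearman correlation of 0.78 with the ratio of female KO to WT and 0.57 with that of male KO to WT. With the same ratios for H3K27ac it was 0.69 in female KO and 0.55 in male KO, and for H3K27me3, which the choice of regions did not use, it was 0.31 and 0.46. The share also moved with that of KO-shared regions among regions with H3K4me3, at 0.69, so the pattern was not particular to distal regions. With the share of WT-only regions among distal regions the correlation was -0.58. These are descriptions over 19 points, and both ratios of a mark share its WT library. On chromosome 4 the H3K4me3 ratios were 0.34 in female KO and 0.19 in male KO, the highest of all, beside a share of 12.1%. On chromosome 1 they were -0.12 and -0.14, and on chromosome 19 they were -0.04 and -0.15. Chromosome 18, with the highest share, had ratios of 0.06 and 0.01, and chromosome 15 had -0.12 and 0.10. The part of these chromosome-wide read levels in the shares was not tested.

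**Figure D5:**
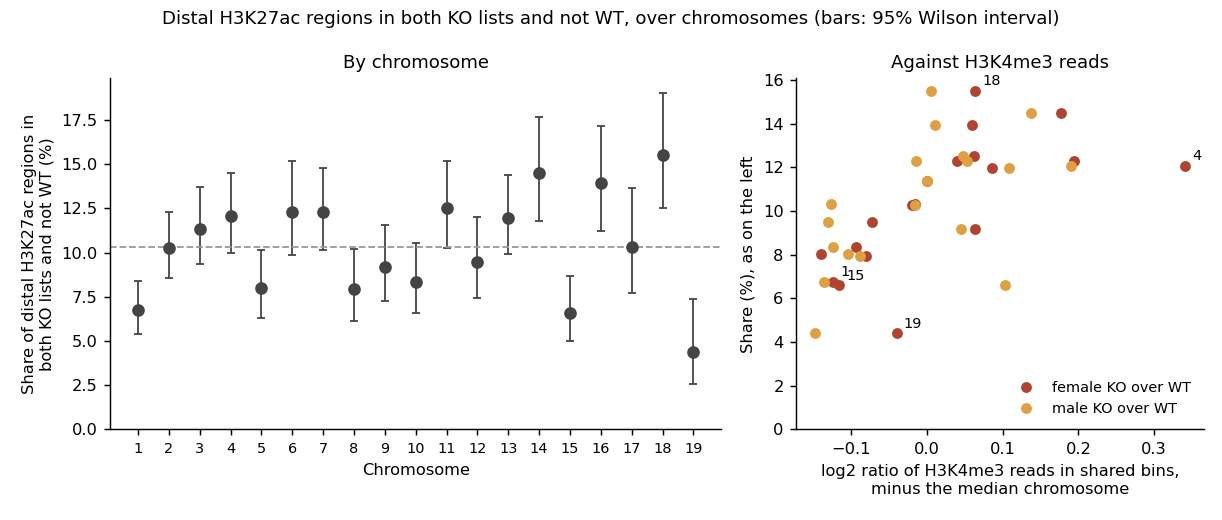
Share of the distal H3K27ac regions of each autosome that were KO-shared, in percent with 95% Wilson intervals (left, dashed line at 10.3% for all autosomes), and the same share against the log2 ratio of KO to WT H3K4me3 reads per chromosome (right, 1 point per chromosome and KO line). Chromosome 18 is highest at 15.5% and chromosome 19 lowest at 4.39%.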

How the data were processed

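The authors' deposited lists, 1 per library, hold a chromosome, a start, an end and a whole number per region. The deposited number was taken as the count of reads the authors found in the region, judged from its values, since the lists have no header. Bowtie 1.1.2, SICER 1 and build mm9 are named in the submitters' processing notes. Not given in the sources used here are the control, the window settings and the total depth. No list was filtered, and coordinates are 1-based.

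Lists were read in Python 3.11.15 with numpy 2.4.6, scipy 1.17.1 and matplotlib 3.10.9, with mm9 lengths from GenomeInfoDb 1.38.1. A density is the reads of a list's regions over their length. Scaling used 200 bp bins held by all 3 lists of a mark. Presence is an overlap of at least 1 bp. bedtools 2.31.1 gave the same 1344 and 37 regions, and 200 of 200 regions planted in the lists were recovered. There was 1 library per group, so no test across libraries was possible.

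The members, comparisons and alternatives were chosen with earlier results of these data known. Regions were named by rule: the 5 widest, the 5 with the highest lower KO count, the 5 with the highest lower KO density, the 5 with the longest WT H3K27me3, and the 5 runs with the most members. The reference tables belong to another assembly, so no gene was named and no sequence printed.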

Additional observations from a re-analysis of the deposited data

How the results depend on the processing

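No paired analysis was possible because each group has 1 library and no test was made. For 11 results, 17 other settings gave 123 values. Of these, 87 stayed within the interval of the reported value, or within 1.5 times the reported number of regions, and 36 moved further. Only the difference in WT H3K27me3 from distal regions of all 3 lists could change sign, and it did not. The causes were not tested beyond what each setting does by construction. The number of KO-shared distal regions ranged between 901 and 1376 under all settings but 2. It was 559 when each list kept the regions from its median count upward, and 5380 in the male lines alone. There the female KO lists of H3K27ac and H3K4me3 were left out of the merging and the filter. A region then needed the male KO list, not WT, and no H3K4me3 of a male line. This last setting and the merging of touching regions (1342) were chosen after seeing the data. With that median count, width was 13 kb, densities were 45.7 (female KO) and 57.7 (male KO) reads per kb, H3K27me3 overlapped 15.9% in female KO and 3.94% in WT, the difference in WT from distal regions of all 3 lists was 2.36 points, 16.8% had another within 50 kb, 21.8% had WT H3K27ac within about 13 kb, against 28.4% as chosen, and chromosome 4 held 5.72%. The male lines alone gave 3.2 kb, 37.3 reads per kb, 2.39 points and 46.1% within 50 kb. With at least 50% covered by each KO list, width was 5.8 kb and 16.1% had another within 50 kb. Another setting dropped KO regions whose density, scaled to WT, fell below the lowest WT density of like width. It left 1205 regions, with a width of 6.4 kb, 33.4 unscaled reads per kb in female KO and 20.5% within 50 kb. Most KO-shared regions clear that lowest density, so this setting does not correct for depth. Merging regions closer than 1 kb gave 19.98% within 50 kb and 21.8% near WT H3K27ac. That share near WT H3K27ac was 19.8% without WT H3K27ac within 5 kb and 22.9% without H3K4me3 within 5 kb. H3K27me3 over at least 50% of the region gave 7.96, 1.86 and 1.19% for female KO, male KO and WT. H3K27me3 regions at or above the median count gave 11, 4.02 and 1.86%, and regions of 2 to 6 kb 9.85% in female KO and 3.09% in male KO. Under these last 2 settings the interval of the difference in WT from distal regions of all 3 lists held 0 (-0.370 to 1.40 and -0.246 to 3.21 points). Another member lay within about 13 kb for 10.9% and within 100 kb for 33.6%, and WT H3K27ac within 5 kb for 11.2% and within 50 kb for 62.8%. The WT lists held the fewest reads for H3K27ac and H3K27me3 and the male KO list for H3K4me3, and no total depth was available to set a floor.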
